A study of Mus musculus with 75 samples.

Results

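The phase II conjugation enzymes of the mouse kidney were followed through 75 whole-kidney RNA-seq libraries of a unilateral ureter obstruction (UUO) study. Members were taken by symbol: glutathione S-transferases (Gsta, Gstm, Gstp, Gstt, Gstk, Gsto, Gstz and the microsomal Mgst genes), UDP-glycosyltransferases (Ugt1, Ugt2 and Ugt3) and cytosolic sulfotransferases (Sult), without symbols that carry the -ps mark of a pseudogene. The rule found 67 of the 32245 genes in the count table and used no measured value. In at least 1 arm of the study 38 of the 67 had enough counts to be tested, and 36 were tested in all 3 arms.

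Phase II enzymes attach a polar group to a drug, a toxin or a metabolite so that it can be secreted into urine or bile. Glutathione S-transferases join electrophiles to glutathione, UDP-glycosyltransferases join a sugar such as glucuronic acid, and sulfotransferases transfer sulfate from the activated donor PAPS. In the kidney many of these enzymes are found in the proximal tubule, which also trims glutathione conjugates to mercapturates before they are excreted.

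In UUO 1 ureter is ligated, and the contralateral kidney (CL) of the same mouse serves as the control. Kidneys were taken on day 3 from adult mice of both sexes on a mixed background. In the first arm mice received ABTAA, an antibody that clusters angiopoietin-2 and activates the endothelial receptor TIE2, or human IgG, by intraperitoneal injection. In the second arm VeptpiECKO mice carried floxed Veptp (the gene Ptprb) and tamoxifen-inducible Cdh5-CreERT2, which is active in endothelium, and VeptpWT controls were noninduced Veptp wt/lox littermates with the same Cre. In the third arm PdgfbiKO mice carried floxed Pdgfb with tamoxifen-inducible Actb-CreERT2, which acts in the whole body, and PdgfbWT controls lacked the Cre. The ABTAA and IgG mice were C57BL6/J or wild-type mice of these breedings, and the PdgfbWT CL group also holds kidneys of sham-operated mice, which the labels do not mark. PdgfbWT CL is thus not made of contralateral kidneys alone. Its comparison with PdgfbWT UUO and the difference between the Pdgfb responses carry this limit. The libraries numbered 8 IgG CL, 8 IgG UUO, 7 ABTAA CL, 7 ABTAA UUO, 7 VeptpWT CL, 8 VeptpWT UUO, 6 VeptpiECKO CL, 8 VeptpiECKO UUO and 4 in each of the 4 Pdgfb groups. The study's text gives fewer VeptpWT mice than there are VeptpWT UUO libraries. The labels do not tie kidneys to mice, so p-values measure the spread between libraries.

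Libraries held 172827 to 2341800 counts (median 757897), and levels are given in CPM, the count scaled to the library total after TMM correction (the trimmed-mean scaling of library sizes), of which 1 stood for 0.140 to 2.78 counts. Library names take a plain form (45 libraries) or are split by a _ sign (30), both present in the ABTAA and Veptp arms and the plain form alone in the Pdgfb arm, and the forms stood apart in many genes, as described below for the members. With a minimum of 10 counts, 28 libraries held Xist alone, 23 held genes of the Y chromosome alone and 24 held both. Of those with both, 22 had plain names. The labels do not explain them, and their source was not tested. Ptprb had lower medians in VeptpiECKO than in VeptpWT (33.7 against 61.5 CPM in CL kidneys and 28.0 against 41.8 in UUO kidneys), with overlapping ranges. Pdgfb was at 33.5 to 40.6 CPM in the UUO libraries labelled PdgfbiKO and 43.0 to 57.5 in PdgfbWT, but at 16.7 to 25.0 CPM in the CL libraries labelled PdgfbiKO and 4.45 to 19.9 in PdgfbWT CL. The CL values go against that label, and directions drawn from the libraries labelled PdgfbiKO carry this limit. In whole kidneys, fewer cells of a type and less RNA per cell cannot be told apart.

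The members together, with the Ugt1a locus counted once, took between 0.379% and 0.945% of a library. The median share was 0.764% in IgG CL and 0.541% in IgG UUO, 0.722% and 0.575% in ABTAA, 0.739% and 0.535% in VeptpWT, 0.712% and 0.595% in VeptpiECKO, 0.716% and 0.467% in PdgfbWT, and 0.68% and 0.671% in the libraries labelled PdgfbiKO. The median was lower in the obstructed kidney in each kind of mouse, with the smallest gap in the libraries labelled PdgfbiKO.

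Summed within a class, the Ugt3 pair was far lower in obstructed kidneys of control mice. The median of its summed level in UUO kidneys was 42.4% of that in CL kidneys in IgG mice, 54.5% in ABTAA, 48.7% in VeptpWT, 67.8% in VeptpiECKO, 24.9% in PdgfbWT and 82.7% in PdgfbiKO. The groups of libraries did not overlap in IgG, ABTAA, VeptpWT and PdgfbWT. The kappa, omega and zeta class stood at 41.5%, 50.9%, 59.9%, 57.4%, 41.0% and 87.3% in the same order of mice, and the sulfotransferases at 46.1%, 53.1%, 55.2%, 66.0%, 50.3% and 81.5%. The shared part of the Ugt1 locus, described below, stood at 52.5%, 48.1%, 63.3%, 49.4%, 44.1% and 76.1%, and the theta class at 52.7%, 68.0%, 73.2%, 86.3%, 55.3% and 94.6%. Other classes were less even. The mu class stood at 67.5% in PdgfbWT, where the libraries did not overlap, at 75.3% to 94.9% in the other mice but PdgfbiKO, and at 115% there. The pi class stood at 76.1% in PdgfbWT, 90.6% in IgG and 96.9% in VeptpWT, and at 106% in ABTAA, 112% in VeptpiECKO and 156% in PdgfbiKO. The alpha class stood at 51.4% in PdgfbWT, 57.3% in IgG and 67.8% to 70.0% in the treated mice, but at 209% in VeptpWT. The microsomal class stood at 78.8% in IgG and 71.1% in PdgfbWT, but at 239% in VeptpWT, 182% in VeptpiECKO and 112% in ABTAA. In the Veptp groups these are medians over both forms of library name, which stood apart in these 2 classes. In VeptpWT the alpha class was at 1047 to 2076 CPM in CL and 912 to 1332 CPM in UUO within plain names, and at 190.0 to 312 and 216 to 392 CPM within split names. The microsomal class was at 593 to 850.0 CPM and 508 to 674 CPM within plain names of VeptpWT and at 140 to 181 and 163 to 358 CPM within split names. In VeptpiECKO it was at 563 to 906 and 525 to 656 CPM within plain names and at 139 to 242 and 233 to 341 CPM within split names. Within each form of the Veptp groups the ranges of the 2 kidneys overlapped, and within plain names the medians of both classes were lower in UUO. Within split names the microsomal medians were higher in UUO in both Veptp groups. The alpha median there was higher in VeptpWT and lower in VeptpiECKO. In ABTAA the microsomal class was at 490 to 778 CPM in CL and 400 to 628 CPM in UUO within plain names and at 355 to 432 and 481 to 574 CPM within split names. The Ugt2 class went from 37.7% in VeptpWT to 426% in PdgfbiKO, with library values that are taken up with the sex-linked transcripts below.

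**Figure D1:**
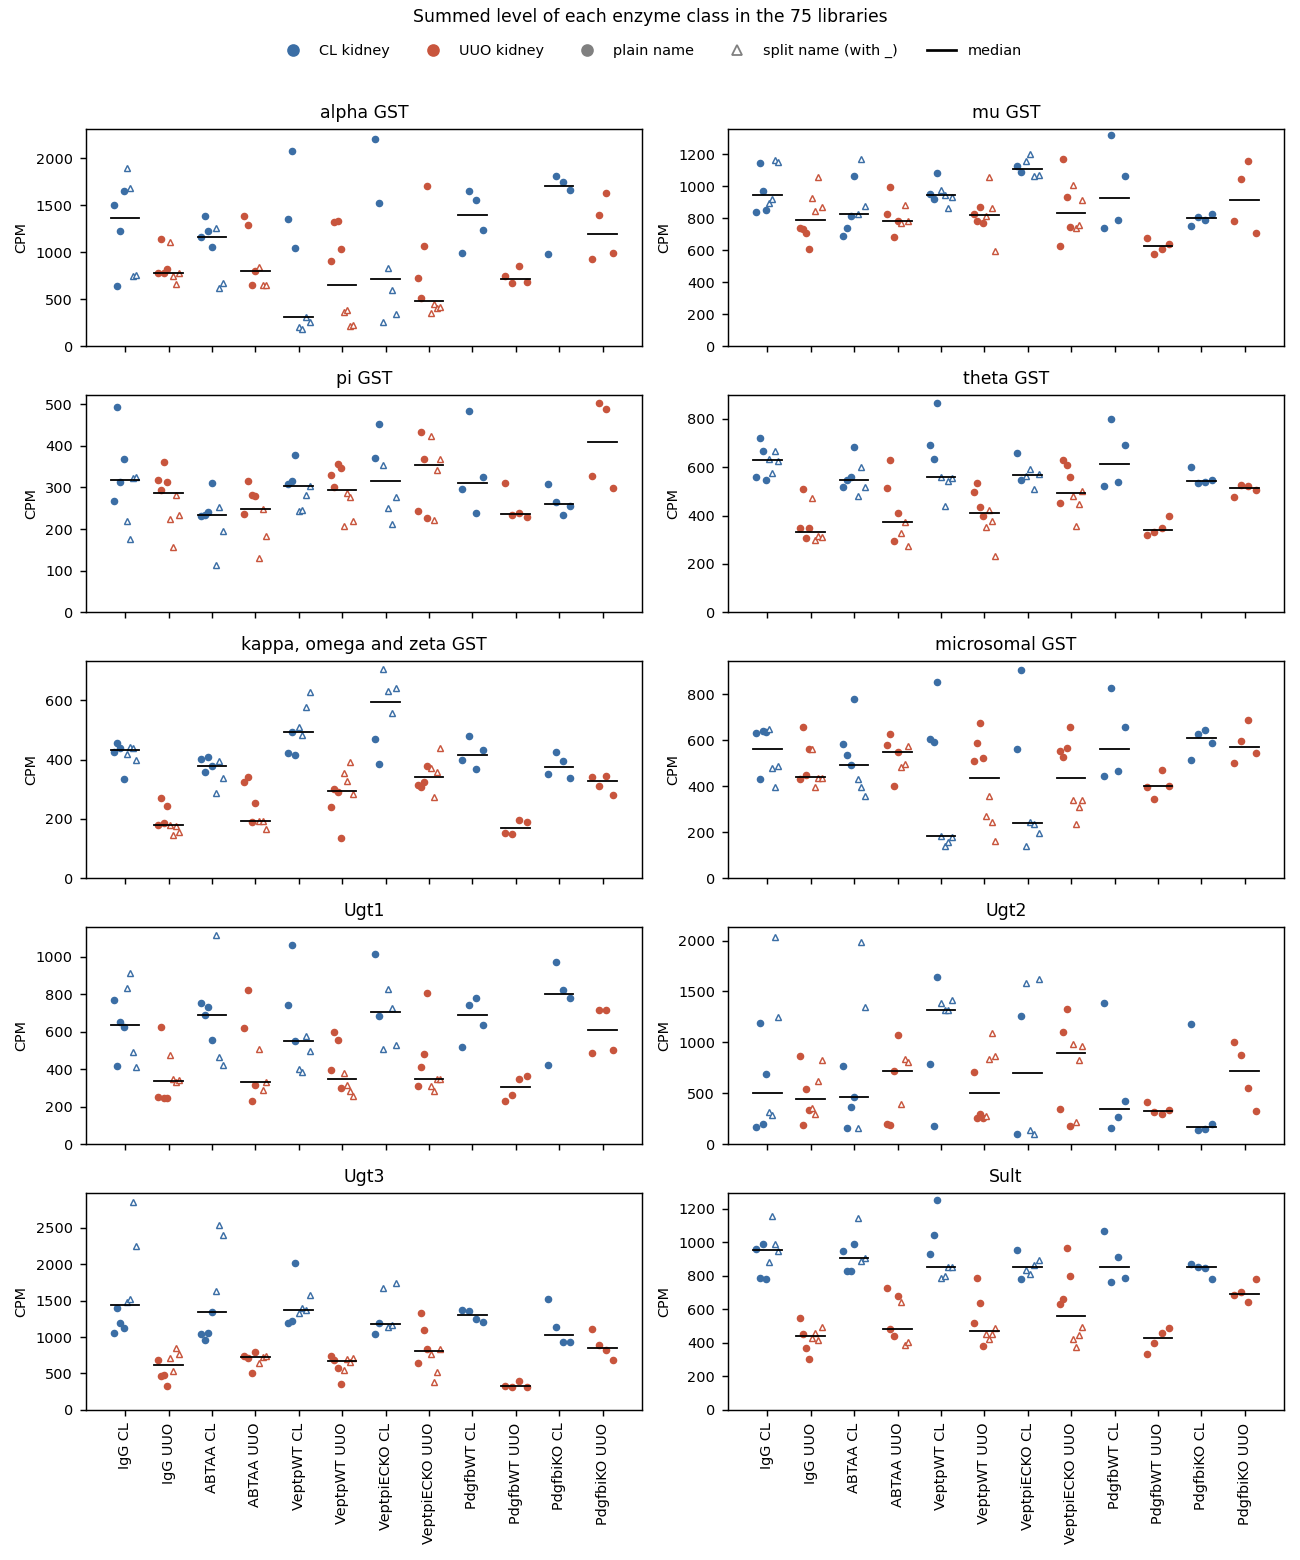
Summed CPM of each of the 10 enzyme classes (vertical axis, 1 panel per class) in each of the 75 libraries, by the 12 groups; blue is CL, red is UUO, circles are plain library names, triangles are split names, and the line is the group median. Ugt3 lay at 1211 to 1377 CPM in PdgfbWT CL and at 314 to 399 CPM in PdgfbWT UUO, while Ugt2 ran from 172 to 2038 CPM within IgG CL alone.

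The first question was which of the enzymes changed with obstruction in control mice. In IgG mice 22 of the 36 tested members fell and 1 rose, when 18.2% of all 9579 tested genes fell and 16.3% rose (edgeR's quasi-likelihood test, adjusted by Benjamini-Hochberg over all genes tested in the arm, threshold 0.05). The median log2 fold change was -0.82 over the members and 0.02 over all genes. In PdgfbWT mice 26 of 37 fell and 0 rose (0 also at an unadjusted p under 0.05 and by DESeq2 and edgeR's exact test), when 19.4% of 10923 genes fell and 17.9% rose, and the medians were -0.90 and 0.04. In VeptpWT mice 8 of 38 fell and 0 rose (1 at an unadjusted p under 0.05, 0 by the other tests), when 8.38% of 11916 genes fell and 10% rose, and the medians were -0.60 and -0.01. With the name form added as a covariate 18 members fell and 1 rose in VeptpWT, when 17.3% of all genes fell and 16.6% rose in that fit, and 17 fell without VeptpWT UUO replicate 2. The falls in VeptpWT were 4 without TMM scaling (when 4.56% of all genes fell) and 4 without 8 libraries whose numbers carry opposite genotype labels in CL and UUO, described below (when 2.71% fell). The 9 Ugt1a symbols count nearly the same fragments. With that locus taken once, the falls were 14 of 28 members in IgG, 7 in VeptpWT and 18 of 29 in PdgfbWT. Without TMM scaling the median of all genes moved to 0.23 in IgG, 0.14 in VeptpWT and 0.41 in PdgfbWT, and the split of all genes went from 1561 higher and 1740 lower to 2492 and 1087 in IgG, from 1195 and 999 to 1383 and 543 in VeptpWT, and from 1956 and 2119 to 4453 and 1153 in PdgfbWT.

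The Ugt3 enzymes, which use sugar donors other than glucuronic acid, fell in all 3 kinds of control mice. Both genes lie side by side on chromosome 15 (GRCm38.p6), Ugt3a1 at 9276888 to 9315032 and Ugt3a2 at 9335550 to 9370955. Ugt3a1 ran from 138 through a median of 247 to 564 CPM in IgG CL and from 18.4 through 66.5 to 137 CPM in IgG UUO, so that the lowest CL library lay just above the highest UUO library. In VeptpWT it ran from 208 through 345 to 436 CPM in CL and from 55.3 through 111 to 148 CPM in UUO. The log2 fold change was -1.88 (SE 0.29, adjusted p = 4.18e-06) in IgG, -1.66 (SE 0.24, adjusted p = 1.13e-05) in VeptpWT and -2.17 (SE 0.23, adjusted p = 6.16e-08) in PdgfbWT. Ugt3a2 ran from 822 through 1216 to 2292 CPM in IgG CL and from 312 through 515 to 714 CPM in IgG UUO, again with no overlap. Its log2 fold change was -1.29 (SE 0.21, adjusted p = 1.08e-05) in IgG, -1.09 (SE 0.22, adjusted p = 0.000569) in VeptpWT and -1.86 (SE 0.16, adjusted p = 2.36e-09) in PdgfbWT.

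Among the zeta, kappa and omega transferases, Gstz1 fell in all 3 kinds of control mice and Gstk1 in 2. Gstz1 isomerises maleylacetoacetate in the breakdown of tyrosine. It ran from 249 through 260 to 345 CPM in IgG CL and from 75.3 through 113 to 179 CPM in IgG UUO, with no overlap. The log2 fold change was -1.26 (SE 0.15, adjusted p = 6.14e-08) in IgG, -0.96 (SE 0.24, adjusted p = 0.00376) in VeptpWT and -1.63 (SE 0.14, adjusted p = 3.73e-09) in PdgfbWT. The call in VeptpWT was lost without TMM scaling and without the 8 libraries of opposite genotype labels (adjusted p up to 0.0831). Gstk1, the transferase of mitochondria and peroxisomes, ran from 57.7 through 115 to 141 CPM in IgG CL and from 21.4 through 47.5 to 62.9 CPM in IgG UUO, where the ranges overlapped at their ends. It fell by 1.29 on the log2 scale (SE 0.25, adjusted p = 0.000109) in IgG and by 1.21 (SE 0.18, adjusted p = 6.07e-06) in PdgfbWT, and its change of -0.97 in VeptpWT did not pass the test over both name forms (adjusted p = 0.15). Within each form the VeptpWT kidneys did not overlap, with plain names at 124 to 174 CPM in CL and 36.9 to 92.3 CPM in UUO, and split names at 33.8 to 41.1 and 13.5 to 29.5 CPM, and Gstk1 fell by 1.06 (adjusted p = 0.0111) and by 0.89 (adjusted p = 0.0147). Gsto1, which also reduces dehydroascorbate, passed in none of the 3.

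The theta class, whose members lack the catalytic tyrosine of other cytosolic transferases, fell in 3 of 3 tested members in IgG and PdgfbWT and in 2 of 3 in VeptpWT. Gstt3 ran from 66.4 through 93.4 to 99.9 CPM in IgG CL and from 29.8 through 40.8 to 62.9 CPM in IgG UUO, with no overlap. Its log2 fold change was -0.98 (SE 0.16, adjusted p = 1.25e-05) in IgG, and that of Gstt2 was -0.83 (SE 0.18, adjusted p = 0.000343) and of Gstt1 -0.61 (SE 0.14, adjusted p = 0.000837). Gstt1 in VeptpWT changed by -0.27 and did not pass. The VeptpWT call of Gstt3 was lost without TMM scaling, with Xist as a covariate and in plain names alone, and that of Gstt2 by edgeR's exact test, and both without the 8 libraries of opposite genotype labels.

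The alpha, mu and pi classes moved less evenly. Gsta3, of the alpha class, ran from 138 through 185.5 to 237 CPM in IgG CL and from 55.1 through 109 to 136 CPM in IgG UUO, without overlap. It fell by 0.86 on the log2 scale in IgG (SE 0.16, adjusted p = 6.52e-05) and by 1.37 in PdgfbWT (SE 0.20, adjusted p = 6.27e-06), and was the only 1 of 4 alpha members to pass in IgG. Gsta2 fell by 0.80 in PdgfbWT (SE 0.20, adjusted p = 0.00236). About 49.8% of the 50-base stretches of Gsta2 transcripts also occur in other genes, chiefly Gsta1, so its counts are uncertain. Gsta4, which conjugates the lipid peroxidation product 4-hydroxynonenal, passed in none of the UUO comparisons. Of the mu class Gstm2 fell in all 3 kinds of control mice, by 1.11 on the log2 scale in IgG (SE 0.24, adjusted p = 0.000415), by 0.90 in VeptpWT (SE 0.25, adjusted p = 0.00935) and by 0.83 in PdgfbWT (SE 0.29, adjusted p = 0.0255). Gstm5 fell in PdgfbWT and did not pass in IgG or VeptpWT. Gstm1 was at -0.66 in PdgfbWT (adjusted p = 0.044), a call lost in 8 of 16 fits with 1 library left out and by DESeq2. Of the pi class Gstp1 fell in PdgfbWT (-0.55, SE 0.19, adjusted p = 0.0253), and neither Gstp1 nor Gstp2 passed in IgG or VeptpWT. In PdgfbWT the calls of Gstm2 and Gstp1 were each lost in 4 of 16 fits with 1 library left out (adjusted p up to 0.188 and 0.196) and, like those of Gsta2 and Gstm5, without TMM scaling and in a fit of all 12 groups. That of Gstm2 in VeptpWT was lost without TMM scaling and in plain names alone.

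The 2 tested microsomal transferases, which sit in membranes and also reduce lipid hydroperoxides, went opposite ways in IgG mice. Mgst1 ran from 86.1 through 205 to 286 CPM in IgG CL and from 252 through 324 to 373 CPM in IgG UUO, and rose by 0.60 on the log2 scale (SE 0.18, adjusted p = 0.00848). Mgst3 ran from 209 through 353 to 448 CPM in IgG CL and from 93.2 through 183.5 to 318.5 CPM in IgG UUO, and fell by 0.92 (SE 0.26, adjusted p = 0.00567). The ranges overlapped for both genes. The call of Mgst1 was lost in split names alone (adjusted p = 0.0718), and both calls in a fit of all 12 groups (adjusted p = 0.0543 and 0.0653). Mgst1 changed by 0.77 in VeptpWT (adjusted p = 0.094) and by 0.20 in PdgfbWT (adjusted p = 0.37), neither of which passed, and Mgst3 fell by 1.28 in PdgfbWT (SE 0.17, adjusted p = 1.91e-06). Within split names of VeptpWT Mgst1 was at 71.6 to 99.5 CPM in CL and 117 to 274 CPM in UUO, without overlap. Within plain names it was at 155 to 332 and 280 to 395 CPM, with overlap.

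Of the 21 sulfotransferases 18 had too few counts to be tested, and the 3 tested fell in both IgG and PdgfbWT. Sult1d1, which sulfates catecholamines and other phenols, lies on chromosome 5 at 87554645 to 87569027. It ran from 577 through 759 to 952 CPM in IgG CL and from 202 through 289 to 408 CPM in IgG UUO, with no overlap. The log2 fold change was -1.30 (SE 0.17, adjusted p = 1.84e-07) in IgG, -1.02 (SE 0.22, adjusted p = 0.00111) in VeptpWT and -1.31 (SE 0.16, adjusted p = 4.34e-07) in PdgfbWT. Sult1a1, the phenol sulfotransferase, fell by 1.12 in IgG (SE 0.28, adjusted p = 0.00182), and Sult1c2 fell by 0.45 (SE 0.14, adjusted p = 0.0119). The call of Sult1c2 in IgG was lost by edgeR's exact test, without TMM scaling and in plain names alone (adjusted p up to 0.244), and that of Sult1a1 in PdgfbWT in 3 of 16 fits with 1 library left out. Neither passed in VeptpWT.

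**Figure D2:**
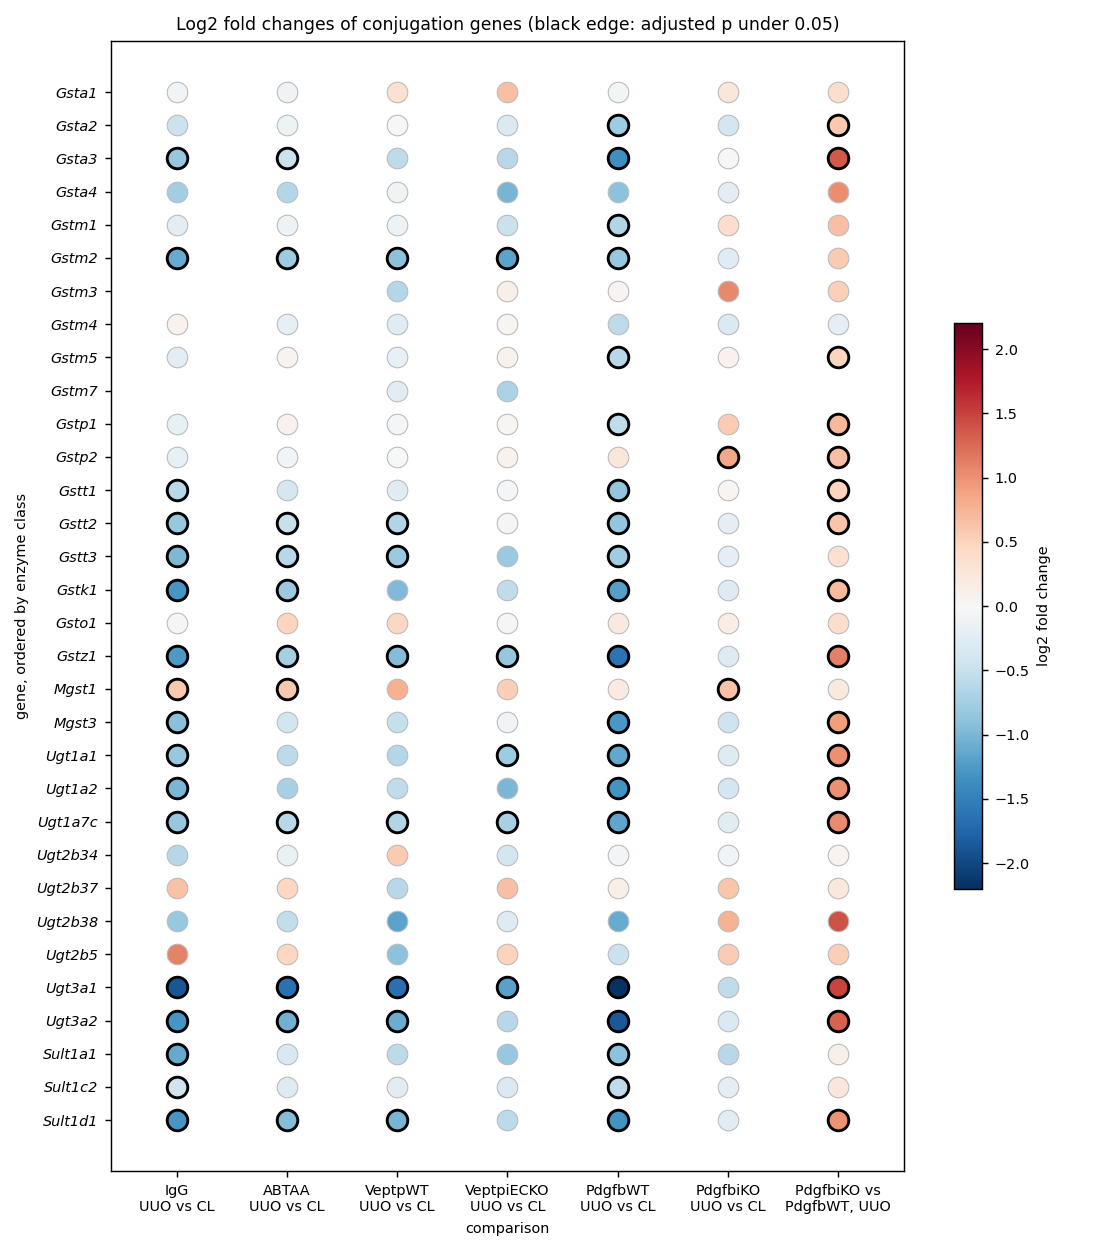
Log2 fold change (colour) of 32 members (vertical axis, grouped by enzyme class) in 7 comparisons (horizontal axis), with a black edge where the adjusted p was under 0.05. The Ugt3 pair, Gstz1 and Sult1d1 have a black edge in all 3 control columns. In the comparison of libraries labelled PdgfbiKO with PdgfbWT in UUO, 22 of 37 tested members were higher and 0 lower. Of all genes 12% were higher and 6.58% lower. The 22 include all 9 Ugt1a symbols, of which only Ugt1a1, Ugt1a2 and Ugt1a7c are drawn.

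The Ugt1a locus spans chromosome 1 from 88055388 to 88220002, where 9 alternative first exons are each spliced to the same set of later exons, and its products glucuronidate bilirubin and many drugs. Each symbol therefore carried the counts of the shared exons. In each library the lowest count among the 9 symbols was taken as the shared part, which totalled 32904 counts and made up 81.9% of Ugt1a7c, 83.0% of Ugt1a2 and 97.5% to 99.9% of the others. Above the shared part stood 7291 counts of Ugt1a7c, 6739 of Ugt1a2, 836 of Ugt1a10, 545 of Ugt1a6a and 274 of Ugt1a5.

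Fitted as a feature of its own, a split chosen after the values were seen, the shared part fell with obstruction in the control mice of 2 arms. It ran from 409 through 638 to 916 CPM in IgG CL and from 245 through 335 to 626 CPM in IgG UUO, with overlap. The log2 fold change was -0.84 in IgG (adjusted p = 0.00624), -1.14 in PdgfbWT (adjusted p = 8.2e-05) and -0.64 in VeptpWT, which did not pass (adjusted p = 0.0612). In plain names alone all Ugt1a symbols but Ugt1a7c lost their IgG call, with Ugt1a1 at an adjusted p of 0.0547. What stood above the shared part moved in both directions. Ugt1a7c above the shared part fell in IgG (-0.90, adjusted p = 0.0454) and PdgfbWT (-1.35, adjusted p = 0.000131), and Ugt1a2 above it fell in PdgfbWT (-2.15, adjusted p = 0.0157). Ugt1a10 above it was higher in UUO by 2.87 in VeptpWT (adjusted p = 0.00163) and by 2.62 in PdgfbWT (adjusted p = 0.00312), and was at 0.20 in IgG (adjusted p = 0.846). The CL values of Ugt1a10 rested on 1 to 4 counts a library in VeptpWT, against 4 to 58 counts in UUO.

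Promoter windows were read from RefSeq (GRCm38.p6) for 59 of the 67 members with 71 promoters. The letters GTTAAT and ATT with 1 base of any kind between them, a site of the tubule factor HNF1, were searched on both strands in the 250 bases before each start. They occurred in 8 of 71 promoters (11.3%) against 0.371% of all 32851 promoters. The letters TGACNNNGC, the core of the antioxidant response element, occurred in 4 of 71 (5.63%) against 10.2% of all. These 4 were Gsta3, Gstm5, Gstm7 and Mgst1, of which only the Gsta3 window lies outside annotated exons. No member held both. The 8 with the HNF1 site were Ugt1a10, Ugt1a9, Ugt1a1, Sult1d1 and 4 Sult2a genes that were not tested. The Sult2a windows resemble each other, as do those of Ugt1a10 and Ugt1a9, so the 8 are not independent. The windows of the measured ones among the 8 are printed, with that of Gsta3 for the other motif. Capitals mark the match, which lies on the opposite strand in the Ugt1a windows.
Ugt1a10, chr1:88055316-88055365, plus strand, match 75 to 66 bases before the start: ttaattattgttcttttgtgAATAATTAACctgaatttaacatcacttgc
Ugt1a9, chr1:88070664-88070713, plus strand, match 95 to 86 bases before the start: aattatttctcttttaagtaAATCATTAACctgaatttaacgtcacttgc
Ugt1a1, chr1:88211894-88211943, plus strand, match 45 to 36 bases before the start: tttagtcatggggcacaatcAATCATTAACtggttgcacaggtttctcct
Sult1d1, chr5:87569056-87569105, minus strand, match 79 to 70 bases before the start: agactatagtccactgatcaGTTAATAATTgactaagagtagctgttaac
Gsta3, chr1:21240444-21240492, plus strand, match 121 to 113 bases before the start: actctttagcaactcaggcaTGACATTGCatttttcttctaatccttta
A match is a description of these letters, and binding was not measured.

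Treated mice were compared in the same way, with their own CL kidneys. In ABTAA mice 10 of 36 members fell and 1 rose, when 12.5% of all genes fell and 12.6% rose, and the median of the members was -0.52. The falls in ABTAA were 4 in plain names alone (when 4.37% of all genes fell), 18 with Xist as a covariate, 20 without a filter on low counts, and 7 to 19 with 1 library left out (19 without UUO replicate 2, 17 without UUO replicate 1 and 16 without CL replicate 7). The share of all genes is not given for the fits after the first. In VeptpiECKO mice 10 of 38 fell and 0 rose (0 at an unadjusted p under 0.05 and by the other tests), when 3.47% fell and 4.47% rose, with a median of -0.58. With the form as a covariate 21 fell and 1 rose in VeptpiECKO, when 10.8% of all genes fell and 10.7% rose, and 3 fell without VeptpiECKO CL replicate 4 or UUO replicate 6. Without the 8 libraries of opposite genotype labels 0 fell in VeptpiECKO (15 lower at an unadjusted p under 0.05), when 0.127% of all genes fell, so that the calls of Ugt3a1, Gstz1, Gstm2 and the 7 Ugt1a symbols were lost there. In the libraries labelled PdgfbiKO 0 of 37 fell (3 at an unadjusted p under 0.05, 0 by the other tests) and 2 rose, when 2.42% fell and 3.94% rose, with a median of -0.24. The 7 falls of Ugt1a symbols in VeptpiECKO are 1 locus, with which counted once 4 members fell, and 9 fell in ABTAA. Without TMM scaling the split of all genes went from 1210 higher and 1197 lower to 1592 and 796 in ABTAA, from 533 and 414 to 613 and 242 in VeptpiECKO, and from 430 and 264 to 567 and 152 in PdgfbiKO.

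Ugt3a1 fell in ABTAA mice by 1.64 on the log2 scale (SE 0.31, adjusted p = 0.000104) and in VeptpiECKO by 1.20 (SE 0.25, adjusted p = 0.0021). It ran from 171 through 272 to 574 CPM in ABTAA CL and from 82.9 through 95.5 to 140.0 CPM in ABTAA UUO, without overlap. Gstz1 fell by 0.74 in ABTAA (SE 0.16, adjusted p = 0.000493) and by 0.85 in VeptpiECKO (SE 0.24, adjusted p = 0.0266), and Gstm2 fell by 0.81 (SE 0.24, adjusted p = 0.0128) and by 1.17 (SE 0.26, adjusted p = 0.00431). Gstz1 in VeptpiECKO lost its call in 4 of 29 fits with 1 library left out (adjusted p up to 0.0991), without TMM scaling and in plain names alone, where the adjusted p was 0.937. Gstm2 lost its call in plain names alone in both ABTAA (adjusted p = 0.412) and VeptpiECKO (adjusted p = 0.890). Ugt3a2 and Sult1d1 fell in ABTAA, by 1.06 and 0.95, and did not pass in VeptpiECKO, at -0.62 and -0.59. The shared Ugt1a part changed by -0.61 in ABTAA (adjusted p = 0.0753) and fell by 0.80 in VeptpiECKO (adjusted p = 0.0432). Of the 7 symbols called there, all lost the call by edgeR's exact test and in plain names alone, and all but Ugt1a7c in 10 to 15 of 29 fits with 1 library left out. Mgst1 rose by 0.58 in ABTAA (SE 0.19, adjusted p = 0.0199) and by 0.65 in PdgfbiKO (SE 0.17, adjusted p = 0.0245), and Gstp2 rose by 0.85 in PdgfbiKO (SE 0.25, adjusted p = 0.0374). With 1 library left out Mgst1 lost its call in 4 of 30 fits in ABTAA and 4 of 16 in PdgfbiKO, and Gstp2 in 6 of 16 and by edgeR's exact test. In a fit of all 12 groups these 3 calls were lost. Within plain names of ABTAA Mgst1 was at 149 to 254 CPM in CL and 191 to 276 CPM in UUO, with overlap and no call (0.18, adjusted p = 0.649), and within split names at 138 to 241 and 341 to 417 CPM, where it rose by 1.03 (adjusted p = 0.000731). Some 54.3% of the 50-base stretches of Gstp2 occur in other genes, chiefly Gstp1.

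ABTAA and VeptpiECKO mice were then set against their controls. No member passed in ABTAA against IgG, in UUO kidneys, in CL kidneys or in the difference of their UUO responses, and neither did any of the 9579 genes (0% in each direction). The members' log2 differences in UUO kidneys ran from -0.51 to 0.49 with a median of 0.25, or 0.17 with the Ugt1a locus taken once, beside 0.01 over all genes. At an unadjusted p under 0.05 there were 0 members in UUO, 1 in CL and 1 in the difference between responses, and DESeq2 called 0 in all 3 and edgeR's exact test 0 in the first 2, the ones it can compare. No member passed in VeptpiECKO against VeptpWT either, with 0% of 11916 genes higher and 0% lower in each of the 3 comparisons, and 0, 0 and 1 member at an unadjusted p under 0.05, and again DESeq2 called 0 in all 3 and the exact test 0 in the first 2. The members' differences in UUO ran from -0.78 to 0.44 with a median of 0.09, beside 0.01 over all genes. Of 8 numbers that split names share between CL and UUO kidneys, 4 carry opposite genotype labels in the kidneys, which would conflict if the numbers mark mice, and the labels do not say what they mark. Without those 8 libraries 0 members passed in the 3 comparisons, with 0 at an unadjusted p under 0.05.

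In UUO kidneys the libraries labelled PdgfbiKO held more of many conjugation enzymes than those of PdgfbWT. Of 37 tested members 22 were higher and 0 lower (0 lower at an unadjusted p under 0.05 and by the other tests), when 12% of 10923 genes were higher and 6.58% lower (edgeR's quasi-likelihood test, adjusted p under 0.05). With the Ugt1a locus taken once, 14 of 29 were higher. The median log2 difference was 0.70 over the members and -0.02 over all genes. Xist and Y genes were both held by 4 of 4 PdgfbiKO UUO libraries and 2 of 4 PdgfbWT UUO libraries, and the other PdgfbWT UUO libraries held Xist alone. In CL kidneys 0 members and 0% of genes passed in either direction, with 2 members lower at an unadjusted p under 0.05 and 0 called by DESeq2 or the exact test. The difference between the responses to UUO passed for 12 members, all positive, when 6.66% of genes were called positive and 1.9% negative. In a fit over all 12 groups, which shares 1 estimate of spread, 6 members were higher in UUO and 0 passed in the difference between responses. The share of all genes in that fit is not given here, so these counts do not set the members apart from all genes. The count in the difference was 20 without PdgfbWT CL replicate 1. The PdgfbWT libraries are shared by these comparisons, and PdgfbWT CL holds the unmarked sham kidneys. Without TMM scaling the median of all genes in UUO shifted to -0.29, 657 genes were higher and 2500 lower in place of 1315 and 719, and 15 members were higher and 0 lower. For the difference between responses the split of all genes went from 728 positive and 207 negative to 312 and 668, and 5 members passed.

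Ugt3a1 was at 242.6, 280.9, 199.6 and 249.7 CPM in PdgfbWT CL and at 42.4, 53.2, 68.3 and 47.7 CPM in PdgfbWT UUO. It was at 375.0, 223, 113.6 and 168.6 CPM in PdgfbiKO CL and at 157, 168.2, 132.5 and 147.5 CPM in PdgfbiKO UUO. All 4 UUO libraries labelled PdgfbiKO were above all 4 of PdgfbWT, and within PdgfbiKO the UUO libraries lay inside the range of the CL libraries. The log2 difference in UUO was 1.48 (SE 0.24, adjusted p = 7.3e-05), and the difference between responses was 1.61 (SE 0.32, adjusted p = 0.00236).

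Ugt3a2 was at 1134, 1077.5, 1051 and 961 CPM in PdgfbWT CL and at 290.0, 260.7, 330.3 and 270.8 CPM in PdgfbWT UUO. It was at 1144, 910.5, 818 and 757 CPM in PdgfbiKO CL and at 957.5, 719, 688 and 530.6 CPM in PdgfbiKO UUO. The UUO libraries of both genotypes did not overlap, and the log2 difference was 1.30 (SE 0.16, adjusted p = 3.2e-06), with a difference between responses of 1.52 (SE 0.22, adjusted p = 0.000126).

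Gsta3 stood at 275, 197, 148 and 156 CPM in PdgfbWT CL and at 72.3, 63.9, 103.0 and 54.5 CPM in PdgfbWT UUO. In PdgfbiKO it stood at 199, 208, 202 and 177 CPM in CL and at 167, 222, 236 and 135.0 CPM in UUO, where the groups of both kidneys overlapped. The difference between genotypes in UUO was 1.35 (SE 0.20, adjusted p = 3.87e-05), and between responses 1.34 (SE 0.29, adjusted p = 0.00374).

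Gstz1 stood at 266, 302, 228 and 267.5 CPM in PdgfbWT CL and at 86.7, 70.9, 92.3 and 90.6 CPM in PdgfbWT UUO, and in PdgfbiKO at 243, 283, 198 and 191.5 CPM in CL and at 211, 184, 200.1 and 156 CPM in UUO. The lowest UUO library of PdgfbiKO was above the highest of PdgfbWT. The difference was 1.12 in UUO (SE 0.15, adjusted p = 8.22e-06) and 1.34 between responses (SE 0.20, adjusted p = 0.000201).

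Sult1d1 stood at 841, 558, 678.5 and 595 CPM in PdgfbWT CL and at 181.5, 263, 298 and 325 CPM in PdgfbWT UUO, and in PdgfbiKO at 678, 657, 631.5 and 581 CPM in CL and at 536, 511, 458 and 627 CPM in UUO. The UUO groups did not overlap, and the difference was 0.99 (SE 0.16, adjusted p = 9.24e-05) and 1.06 between responses (SE 0.23, adjusted p = 0.00371). Mgst3 stood at 127, 145, 180 and 172 CPM in PdgfbWT UUO and at 264.5, 289, 346 and 282 CPM in PdgfbiKO UUO, with a difference of 0.92 (SE 0.17, adjusted p = 0.000485). Mgst1, of the same class, was at 270, 199, 288 and 229.9 CPM in PdgfbWT UUO and at 234, 307, 341 and 261 CPM in PdgfbiKO UUO, with overlapping values and no call.

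**Figure D3:**
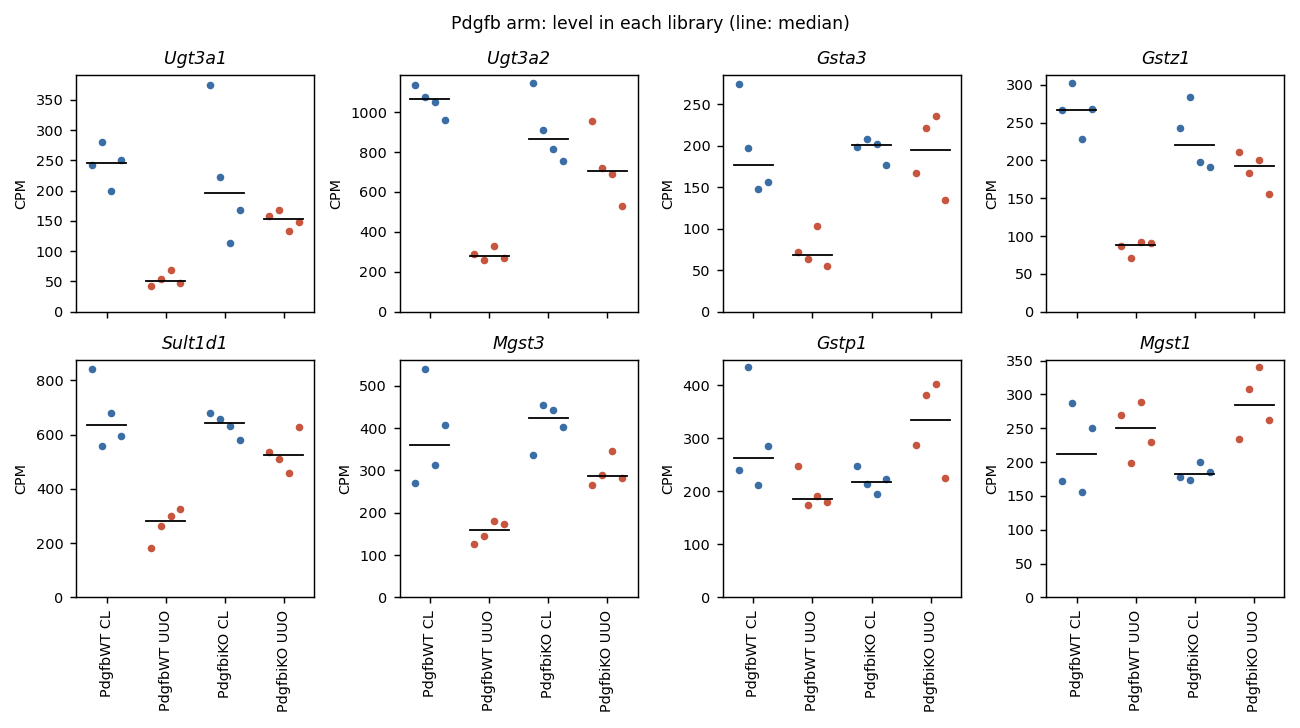
CPM of 8 members (vertical axis, 1 panel per gene) in the 4 libraries of each Pdgfb group (horizontal axis), with a line at the median. In PdgfbWT UUO all 4 libraries of Ugt3a1, Ugt3a2, Gsta3, Gstz1, Sult1d1 and Mgst3 lie under the 4 of PdgfbiKO UUO, while those of Mgst1 and Gstp1 overlap.

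The other calls in UUO kidneys ran from 0.49 for Gstt1 to 1.03 for Ugt1a7c on the log2 scale. Gstp1 was higher by 0.71 (SE 0.19, adjusted p = 0.0105), Gstk1 by 0.70 (SE 0.18, adjusted p = 0.00896), Gstt2 by 0.62 (SE 0.14, adjusted p = 0.00204) and Gstm5 by 0.50 (SE 0.12, adjusted p = 0.00481). These 4 also passed in the difference between responses, at 1.12, 0.93, 0.66 and 0.72, as did Gstt1 at 0.91, Mgst3 at 0.82 and Ugt1a7c at 0.92. With 1 library left out the difference between responses lost its call in 10 of 16 fits for Gstt2, 8 for Mgst3, 4 for Ugt1a7c and 2 for Gstk1. Gstp2 and Gsta2 were higher in UUO, by 0.66 (adjusted p = 0.0363) and 0.59 (adjusted p = 0.0384), with shared sequence that leaves their counts uncertain, and both calls were lost in 6 of 16 fits with 1 library left out. That of Gstt1 in UUO was lost in 5 and that of Gstp1 without PdgfbiKO UUO replicate 3. The shared part of Ugt1a was at 229, 259.6, 349 and 364 CPM in PdgfbWT UUO and at 485.5, 718, 716.5 and 503 CPM in PdgfbiKO UUO, without overlap, and was higher by 1.01 (adjusted p = 0.00103). Its difference between responses was 0.85 and did not pass (adjusted p = 0.069). Sult1a1, Sult1c2, Gsto1, Gstm1, Gsta4 and the 4 Ugt2 members did not pass, with differences of 0.13, 0.24, 0.39, 0.65 and 1.03 for the first 5.

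Markers of some kidney cells moved with these values, and others did not. Of 8 proximal tubule markers 8 were lower in PdgfbWT UUO than in CL, and 6 of 8 were higher in PdgfbiKO UUO than in PdgfbWT UUO, among them Slc34a1, the apical phosphate transporter, by 1.75. Their summed level was 1460 to 2212 CPM in PdgfbWT UUO and 2751 to 5524 CPM in PdgfbiKO UUO, against 5960 to 6267 and 5762 to 7034 CPM in the CL kidneys. In IgG UUO 7 of 8 fell, from a summed 4490 to 7566 CPM in CL to 1923 to 3642 CPM. In ABTAA 6 of 8 fell, and in VeptpWT and VeptpiECKO 4 of 8 each, when 12.5%, 8.38% and 3.47% of all genes fell. Of the 4 markers of the thick ascending limb and distal tubule, 4 were higher in PdgfbiKO UUO, with 3532 to 5186 CPM against 2058 to 2408, and 3 of 3 stromal markers were lower, with 104 to 211 CPM against 270.3 to 367. Collecting duct markers were higher in 3 of 4. Leukocyte markers were lower in 2 of 3 tested and endothelial markers in 2 of 4. Of 3 podocyte and 3 injured tubule markers 0 passed. Of all genes 12% were higher and 6.58% lower in this comparison. The part of cell numbers in the members' values was not tested.

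The Ugt2 family, which glucuronidates steroids and bile acids, passed in no UUO comparison and in no comparison of treated with control mice, and its 4 tested members ranged widely within groups. The levels went with sex-linked transcripts, and this grouping was chosen after the values were seen and is given with no test. Ugt2b37 was at 0 to 8.64 CPM (median 2.41) in the 14 CL libraries with Xist alone and at 139 to 320.4 CPM (median 221) in the 13 with Y genes alone. In UUO it was at 10.7 to 111 CPM (median 54.0) in 14 libraries and at 91.4 to 258 CPM (median 192) in 10. The CL libraries of both kinds were far apart, and the UUO libraries overlapped. Ugt2b38 was at 50.1 to 167 CPM (median 85.7) against 855 to 1758 CPM in CL, and at 91.3 to 229 CPM against 579 to 971 CPM in UUO, where the 2 kinds did not overlap.

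Some members went the other way. Gsta4 was at 99.2 to 422 CPM (median 274) in CL libraries with Xist alone and at 24.0 to 81.1 CPM (median 56.7) in those with Y genes alone, and Ugt2b34 was at 27.6 to 142 CPM against 0 to 30.8 CPM. Ugt1a2 above the shared part was at 175 to 741 CPM (median 279) against 0 to 3.86 CPM (median 1.55) in CL, and at 0 to 252 CPM (median 144) against 0 to 7.31 CPM in UUO. Ugt3a1 overlapped, at 114 to 329 against 189 to 574 CPM. The kinds are unevenly spread over the groups, with Y genes alone in 5 of 7 VeptpWT CL libraries and 1 of 4 PdgfbWT CL libraries, and both kinds of transcript in 4 of 4 PdgfbiKO UUO libraries. Ugt2b37 kept its distance in CL within each form of library name, at 0 to 5.99 against 169 to 276 CPM in plain names and at 0 to 8.64 against 139 to 320.4 CPM in split names.

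**Figure D4:**
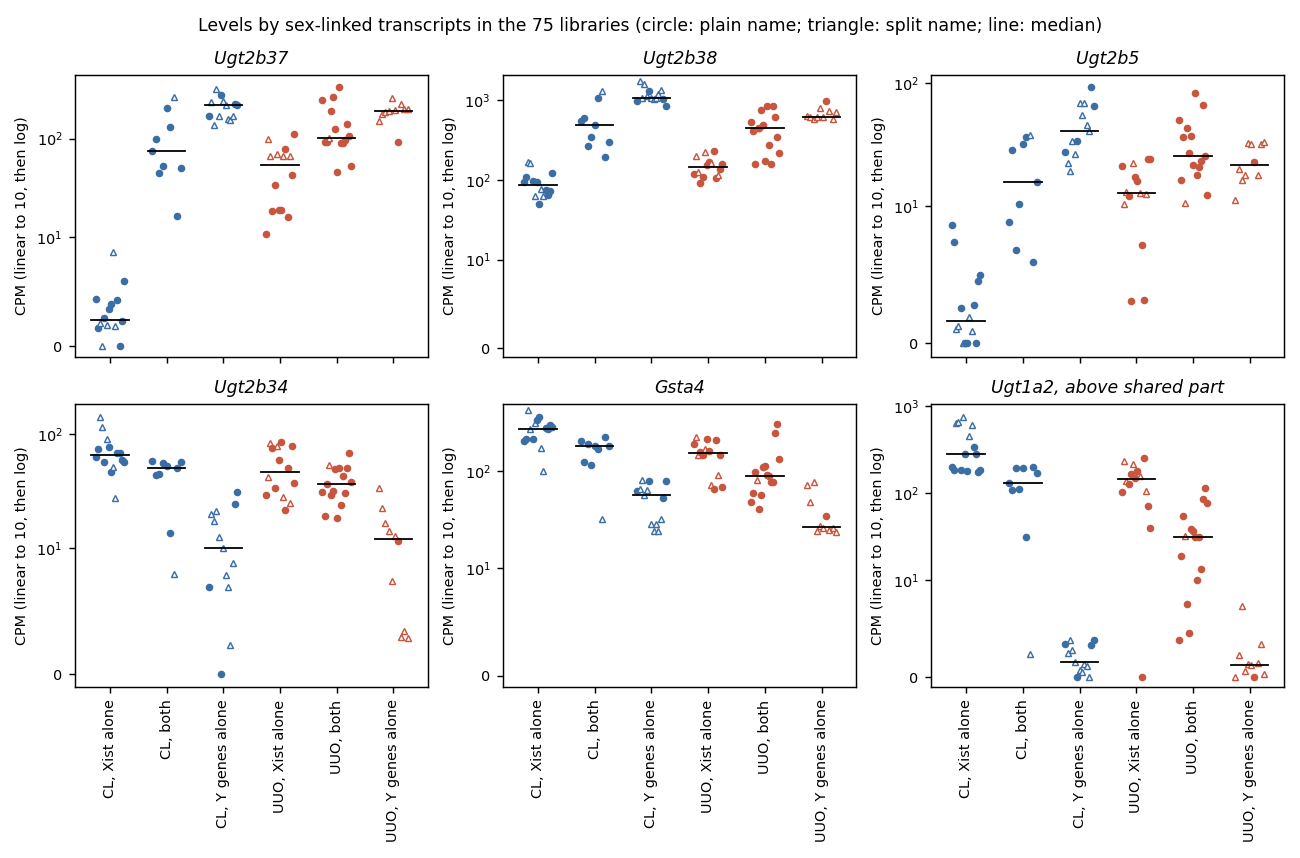
CPM of 6 members (vertical axis, linear to 10 and logarithmic above) in libraries with Xist alone, with both or with Y genes alone at 10 counts or more (horizontal axis), for CL and UUO kidneys. Ugt2b37 and Ugt2b38 lie higher in libraries with Y genes alone, Gsta4 and Ugt1a2 above the shared part lie higher in those with Xist alone, and libraries with both fall between or on either side.

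Members also differed between the forms of library name. In the ABTAA arm 3 members were higher and 7 lower in split than in plain names, when 18.6% of genes were higher and 21.2% lower. In the Veptp arm 7 were higher and 23 lower, when 34% were higher and 28.4% lower. The 23 include the 9 Ugt1a symbols, and with that locus taken once 15 of 30 were lower. Without TMM scaling the members' splits were 8 and 3, and 12 and 11, and those of all genes went from 1778 and 2027 to 2866 and 1319 in the ABTAA arm and from 4053 and 3385 to 6886 and 1651 in the Veptp arm. The forms also differed in sex-linked transcripts, with Y genes alone in 18 of 30 split and 5 of 45 plain names and both kinds in 2 of 30 and 22 of 45. All 4 split VeptpWT CL libraries held Y genes alone. Mgst3 was at 365 to 518 CPM in plain and 61.4 to 93.8 CPM in split names of VeptpWT CL, and at 212 to 299 against 42.8 to 83.8 CPM in VeptpWT UUO, a log2 difference of -2.21 over the arm (SE 0.11, adjusted p = 1.19e-18). Gsta2 was at 726 to 1458 CPM against 94.5 to 157 CPM in VeptpWT CL, a difference of -2.08 over the arm (SE 0.20, adjusted p = 3e-11). Gstp2 was at 46.8 to 72.4 CPM against 5.18 to 19.3 CPM in IgG CL, a difference of -2.61 (SE 0.18, adjusted p = 4.35e-14). In the Veptp arm Gsta4 and Ugt2b34 were lower too, at -2.02 (SE 0.28, adjusted p = 8.65e-08) for the former and -1.96 (SE 0.36, adjusted p = 1.32e-05) for the latter. These are genes whose level went with the sex-linked transcripts. Within the Veptp CL libraries with Y genes alone, Gsta4 was at 78.8 CPM in the 1 plain and 24.0 to 32.3 CPM in the 5 split names, and Ugt2b34 at 0 and 2.29 to 10.1 CPM. In the UUO libraries of the same kind Gsta4 was at 34.3 CPM in 1 plain and 23.7 to 26.8 CPM in 6 split names, and Ugt2b34 at 11.4 and 2.87 to 14.0 CPM. The 7 higher ones, Gstm4, Gstm7, Gsto1, Gstt3, Gstz1, Gstm1 and Ugt3a1, differed by 0.44 (Ugt3a1) or more. Gsta1 was at -1.87 in the ABTAA arm and -2.63 in the Veptp arm, and shares 90.5% of its 50-base stretches with other genes.

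**Figure D5:**
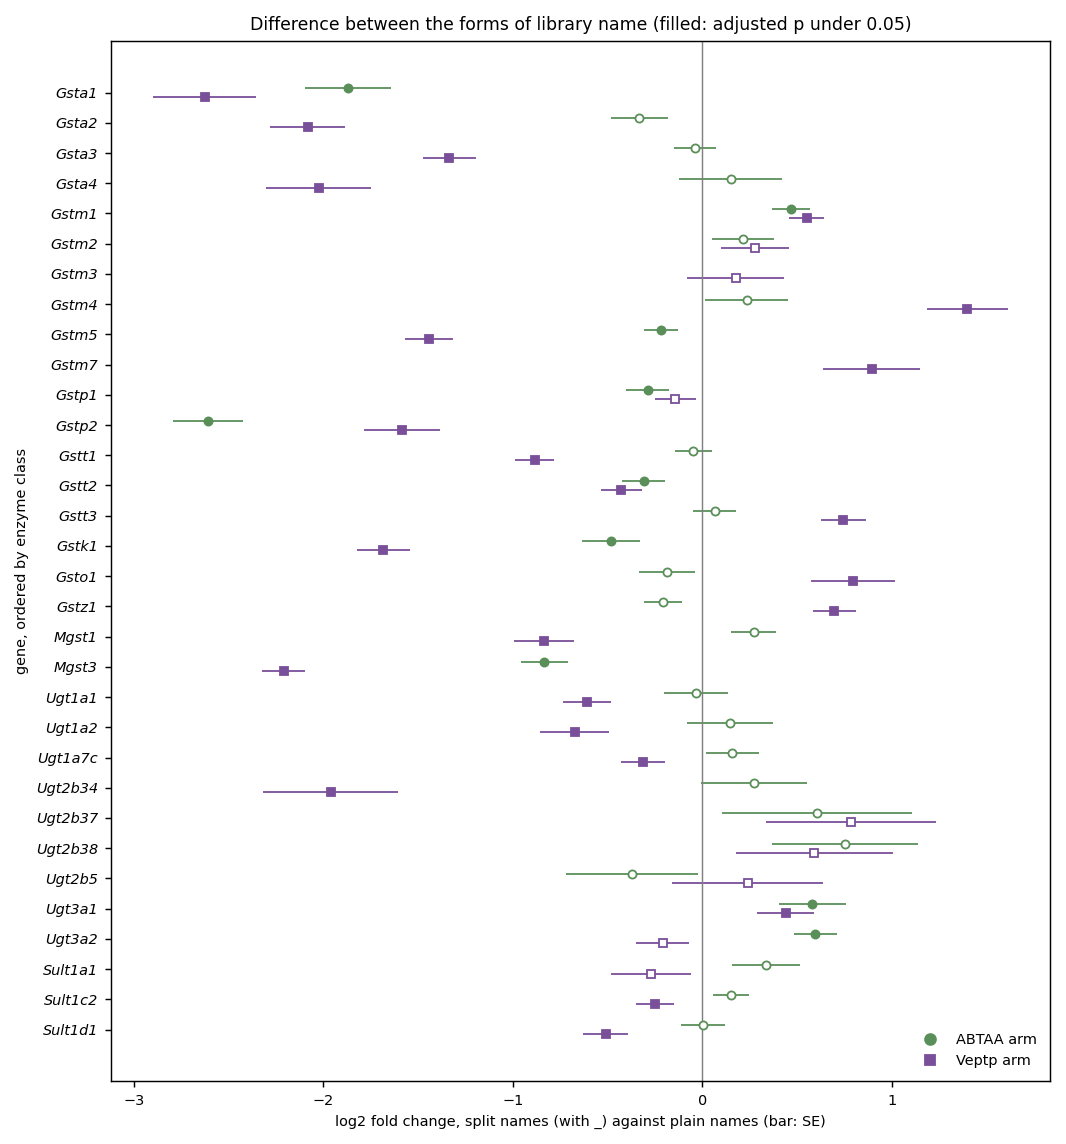
Log2 difference between libraries with split and with plain names (horizontal axis), with the SE, for 32 members (vertical axis) in the ABTAA arm (green circles) and the Veptp arm (purple squares), filled where adjusted p was under 0.05. Mgst3, Gsta1 and Gstp2 lie to the left of 0 in both arms, while Gsta2 and Gsta4 lie at -2.08 and -2.02 in the Veptp arm and at -0.33 and 0.15 in the ABTAA arm.

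The difference in UUO response between forms passed for no member. In the ABTAA arm 0 members and 0% of genes passed in either direction (lowest adjusted p of a member 0.348, 4 members at an unadjusted p under 0.05), and in the Veptp arm 0 members passed when 0.101% of genes were higher and 0.269% lower (lowest adjusted p of a member 0.0913, 7 members at an unadjusted p under 0.05), by edgeR's quasi-likelihood test, the one tool run on it. The lowest of these in the Veptp arm was that of Mgst1, whose log2 difference was 1.03. What the forms mark is not given in the labels. In IgG 13 members fell and 2 rose within plain names, when 12.6% of all genes fell and 10.7% rose, and 20 fell and 0 rose within split names, when 15.4% fell and 13.7% rose. In VeptpWT 7 members fell within plain names (6.7% of all genes) and 17 within split names (11.9%). In VeptpiECKO 0 fell within plain names (0% of all genes, with 13 members lower at an unadjusted p under 0.05) and 17 within split names (10.6%). VeptpiECKO CL holds 2 plain and 4 split names and VeptpiECKO UUO 4 and 4, so that the mix of forms differed between its kidneys. Ugt3a1 fell within both forms in IgG (-1.52 and -2.08), while in VeptpiECKO it was at -0.23 in plain names (adjusted p = 0.91) and fell by 1.56 in split names (adjusted p = 4.4e-05).

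Genes that supply or finish conjugation were counted on lists chosen with earlier results known. The shares of all genes beside which these counts stand are 18.2% lower in IgG, 19.4% in PdgfbWT, 8.38% in VeptpWT, 12.5% in ABTAA and 3.47% in VeptpiECKO, and 12% higher in PdgfbiKO than in PdgfbWT UUO. Of 11 tested genes of glutathione supply and mercapturate formation, 8 fell in IgG, 9 in PdgfbWT, 5 in VeptpWT, 6 in ABTAA and 0 in VeptpiECKO, and 8 were higher in PdgfbiKO than in PdgfbWT UUO. Dpep1, the dipeptidase of the brush border, fell by 1.59 in IgG (SE 0.25, adjusted p = 4.72e-06) and by 1.76 in PdgfbWT (SE 0.22, adjusted p = 5.2e-07). Ggt1, which opens the breakdown of glutathione conjugates, fell by 1.01 and 1.32, and Acy3, which deacetylates mercapturates, by 1.33 and 1.91. In UUO kidneys Acy3 was higher in PdgfbiKO by 1.44 (SE 0.23, adjusted p = 6.05e-05), Dpep1 by 1.17 and Ggt1 by 0.95.

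Of 5 genes of sulfate supply 3 fell in IgG and 4 in PdgfbWT, and 2 were higher in PdgfbiKO UUO. Papss2, which makes PAPS, fell by 1.47 in IgG (SE 0.19, adjusted p = 1.19e-07), Bpnt1, which clears its spent form, by 1.27, and Papss1 by 0.86. Of the 3 genes of UDP-glucuronate supply and release 0 passed in any UUO comparison. Of 9 tested genes of other conjugation 6 fell in IgG, 6 fell in PdgfbWT and 6 were higher in PdgfbiKO UUO. The widest change was that of Inmt, an N-methyltransferase, at -3.25 in IgG (SE 0.51, adjusted p = 4.44e-06), -4.22 in PdgfbWT (SE 0.55, adjusted p = 9.83e-07) and 3.49 in PdgfbiKO against PdgfbWT UUO (SE 0.55, adjusted p = 5.98e-05). In VeptpWT 5 of 10 tested genes of other conjugation fell and 1 rose. The riser was Nnmt, which methylates nicotinamide, by 2.74 (SE 0.62, adjusted p = 0.00127).

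Of 9 tested regulators 4 fell and 1 rose in IgG, when 18.2% of all genes fell and 16.3% rose. Hnf4a, a factor that drives tubule and liver genes, fell by 0.73 (SE 0.12, adjusted p = 5.56e-06), Nqo1, a target of the antioxidant factor NRF2, fell by 0.92 (SE 0.24, adjusted p = 0.00281), and Hmox1, the inducible haem oxygenase, rose by 1.51 (SE 0.34, adjusted p = 0.000534). Hnf4a was higher in PdgfbiKO than in PdgfbWT UUO by 0.59 (SE 0.15, adjusted p = 0.00674) and Nqo1 by 1.12 (SE 0.23, adjusted p = 0.00123). Of 5 efflux pumps 2 fell in IgG (Abcc2 and Abcg2, both by 0.60), and the 1 that fell in PdgfbWT is close to the 19.4% of all genes.

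The 29 members that were tested in no arm held 0 to 386 counts over all 75 libraries, and 13 of them held under 10. They include 18 of the 21 sulfotransferases and 6 of the 10 Ugt2 genes, for which these libraries give no comparison.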

How the data were processed

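Whole-kidney RNA from adult mice was made into Smart-seq3-type libraries, with the wells of a sample merged. The deposited count table holds raw counts per gene that the authors made, per the submitters' processing notes, with STAR 2.7.3a, UMI-tools 1.1.4 and featureCounts (Subread 1.4.6-p5) on mm10. The sources used here do not give the annotation or the counting options (strand, overlaps, multiple matches), and counts of overlapping genes and near-identical copies are uncertain.

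Groups were taken from the labels. A separate model was fitted for each arm, on its 4 groups, with edgeR 4.0.16 in R 4.3.3 (filterByExpr by group, TMM, quasi-likelihood test), and p-values were adjusted over all genes of the arm by Benjamini-Hochberg. CPM values were scaled by the library total times its TMM factor. SE is the log2 fold change over the square root of F. The fit was tested on simulated data. The alternatives, among them DESeq2 1.42.0, edgeR's exact test, other filters and scaling and leaving out 1 library at a time, are given in the closing section.

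Named members were up to 3 of each class with the highest mean CPM, every member called between treated and control mice or in a difference between responses, up to 5 with the largest called rise and fall per UUO comparison, and up to 5 per arm between name forms. Gstm4 and Gstm7 are named outside this rule. The members and lists were chosen with earlier results of these data known. In the ABTAA arm, 3 numbers shared by libraries correlated at 0.166 to 0.397 in their deviations from the group means (mean of other pairs -0.0166), and were used as a block in an alternative fit. Pairs with different numbers and opposite treatment labels reached 0.289, so these correlations do not show that the numbers mark mice. No 2 libraries were identical (0 pairs). Tables were handled with Python 3.11.15, numpy 2.4.6 and pandas 2.3.3, and plots were drawn with matplotlib 3.10.9.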

Additional observations from a re-analysis of the deposited data

Results flagged for a closer look

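In the class levels, 4 of 120 checks of a group of 4 to 10 libraries found 1 library far from the rest, and chance finds about 1 in 20 groups. The pi GST level of PdgfbWT UUO replicate 1 was 309.3 CPM, with the others at 227.9 to 238 CPM. The kappa, omega and zeta GST level of IgG CL replicate 4 was 333 CPM, with the others at 399.5 to 454.8 CPM. The Ugt1 level of VeptpiECKO UUO replicate 4 was 804.8 CPM, with the others at 283.1 to 483.4 CPM. The Ugt2 level of PdgfbiKO CL replicate 1 was 1179 CPM, with the others at 137.9 to 192.5 CPM, and that library held genes of the Y chromosome alone.

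The responses to UUO differed between the libraries labelled PdgfbiKO and PdgfbWT, by edgeR's quasi-likelihood test of the difference, for 12 members. The log2 difference was 1.61 for Ugt3a1, 1.52 for Ugt3a2, 1.34 for Gsta3, 1.34 for Gstz1, 1.12 for Gstp1, 1.06 for Sult1d1, 0.93 for Gstk1, 0.92 for Ugt1a7c, 0.91 for Gstt1, 0.82 for Mgst3, 0.72 for Gstm5 and 0.66 for Gstt2.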

How the results depend on the processing

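Of 114 called values, 936 of 1086 values under alternatives and 2365 of 2534 with 1 library left out kept direction and call, and none of them reversed. The counts of members that moved by over 1.5 times are given beside the reported ones. Falls in IgG (22) were 13 in plain names, and 22 to 23 with 1 library left out. Rises in IgG (1) were 2 without TMM, 4 without a filter, 2 with Xist as a covariate, 2 in plain and 0 in split names and 0 in a fit of all 12 groups. Falls in ABTAA (10) were 20 without a filter, 18 with Xist, 4 in plain names and 7 to 19 with 1 library left out (19 without ABTAA UUO replicate 2, 17 without UUO replicate 1, 16 without CL replicate 7). Rises in ABTAA (1) were 2 without a filter, 2 with Xist, 0 in plain, 2 in split names, 0 with 12 groups and 0 to 2 with 1 library left out. Falls in VeptpWT (8) were 4 without TMM, 17 with Xist, 18 with the form as covariate, 17 in split names, 15 with 12 groups, 4 without the numbers whose genotypes were opposite and 7 to 17 with 1 library left out (17 without VeptpWT UUO replicate 2). Rises in VeptpWT (0) were 1 without TMM, 2 without a filter, 1 with the form, 3 in split names, 1 with Ugt1a as a locus, 2 with 12 groups and 0 to 1 with 1 library left out. Falls in VeptpiECKO (10) were 4 with a mean count of 20, 4 by the exact test, 21 with the form, 0 in plain and 17 in split names, 0 without the opposite numbers, 4 with Ugt1a as a locus, 16 with 12 groups and 3 to 13 with 1 library left out (3 without CL replicate 4 or UUO replicate 6). Rises in VeptpiECKO (0) were 1 without a filter, with the form, in split names and with 12 groups, and 0 to 1 with 1 library left out. Rises in PdgfbWT (0) were 2 without TMM, 3 without a filter, 1 with Xist and 1 with Ugt1a as a locus, and falls (26) were 22 to 27 with 1 library left out. Rises in PdgfbiKO (2) were 4 without a filter, 5 with Xist, 1 by the exact test, 0 with 12 groups and 0 to 5 with 1 library left out (5 without CL replicate 1), and falls (0) were 1 without a filter and 1 with Xist, and 0 to 1 with 1 library left out. Members higher in PdgfbiKO than in PdgfbWT UUO (22) were 6 with 12 groups and 18 to 25 with 1 library left out. Positive differences between responses (12) were 5 without TMM, 21 without a filter, 23 with Xist, 0 with 12 groups and 8 to 20 with 1 library left out (20 without PdgfbWT CL replicate 1). Between forms, members higher in the ABTAA arm (3) were 8 without TMM and 6 without a filter, members lower (7) were 3 without TMM and 3 with a mean count of 20, members higher in the Veptp arm (7) were 12 without TMM and 11 without a filter, and members lower (23) were 11 without TMM. Without a filter the response to UUO differed between forms for 3 members in the ABTAA arm and for 2 higher and 1 lower in the Veptp arm. With the replicate block, falls were 22 in IgG and 11 in ABTAA, and in the Veptp arm, where 4 of 8 shared numbers had opposite genotypes (r 0.0632 to 0.438), 20 and 1 rise in VeptpWT and 19 in VeptpiECKO. Taking Ugt1a as a locus was chosen after seeing the data. Counts of members that stand without a share of all genes, here and above, do not set the members apart from all genes. The causes were not tested. Libraries of 172827 counts leave members of few counts without a comparison.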
